A study of Mus musculus with 5 samples.

Results

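The Zfp genes of the mouse code for zinc finger proteins, and 106 of them gave a readable signal on 5 microarrays of NIH-3T3 cells. The members were chosen by symbol, as genes named Zfp followed by digits alone, without Zfp36, which encodes an mRNA-binding protein of another zinc finger type. Each gene was represented by the probe set, the group of short probes for one transcript, with the highest mean over the 5 arrays, and was kept where that mean reached log2 6. Of 304 Zfp genes by symbol, with 574 probe sets, 106 were kept and 198 were below the threshold, among 18194 genes with a probe set of their own. The mean over all arrays therefore chose the members, and it is given here as a description only.

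Most Zfp genes code for C2H2 zinc finger proteins, in which a pair of cysteines and a pair of histidines hold a zinc ion and neighbouring fingers read successive bases of DNA. Many mouse members also carry a KRAB domain, which recruits the corepressor TRIM28 and with it heterochromatin, and these proteins are known for silencing retrotransposons and imprinted genes. Other members bind RNA, mature ribosomes, act as ubiquitin or SUMO ligases or set cell fate.

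The study asked which mRNAs are bound by AUF1, a protein that binds AU-rich elements of mRNAs and is encoded by Hnrnpd. All samples came from NIH-3T3, an established line of mouse embryonic fibroblasts, stably carrying the vectors pBSwitch and pSLHGC-MYC-AUF1 p42, from which mifepristone switches on myc-tagged AUF1 p42. According to the methods, the cells had been selected in the presence of mifepristone, which all groups share. The 2 arrays labelled AUF1 induction hold RNA of ribonucleoprotein immunoprecipitates (RNP-IPs), taken with anti-c-myc beads from cells given 1 nM mifepristone for 24 h. The 2 arrays labelled as no induction control hold RNP-IPs taken with the same beads without induction. The last array holds total RNA, and its labels do not say whether the cells were induced. All values are log2 signals after RMA, a normalization that gives every array the same distribution, so that each signal is relative to the other mRNAs of its array.

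Hnrnpd was lower in the RNP-IPs labelled induced. Its log2 signal on the brightest probe set was 6.72 and 7.39 in the RNP-IPs labelled induced, against 11.35 and 11.85 labelled uninduced and 10.60 in total RNA. A further probe set had 3.71 and 3.61 labelled induced, against 8.4 and 8.52 labelled uninduced and 7.03 in total RNA. Another, dimmer one had 2.40 and 2.64, against 5.15 and 4.39 and 3.94. Neither the labels nor the methods say whether the probes of Hnrnpd match the mRNA made from the vector. Hnrnpd alone does not settle which RNP-IPs were induced. Directions below therefore follow the labels as given, and groups are called labelled induced and labelled uninduced. All 10 fibroblast markers had a mean of at least log2 6, with array values of 7.43 to 13.42, and 9 of 10 markers of other cell types had means under log2 5. The 5′ control probe set of Gapdh had 8.18 and 4.24 in the RNP-IPs labelled induced, against 3.65 and 7.82 labelled uninduced and 6.93 in total RNA, so that replicate 1 of one group resembled replicate 2 of the other. On the 3′ control probe set of Gapdh the same arrays were low, with a smaller gap. It had 11.90 and 9.72 labelled induced, 9.70 and 12.11 labelled uninduced and 12.32 in total RNA. Among the members, replicate 2 was above replicate 1 in the pair labelled induced and below it in the pair labelled uninduced for 60 (56.6%), against 40.2% of the other genes with a mean of at least log2 6. Both signs were opposite for 15 (14.2%), against 29.6%. Its part in the results was not tested.

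The median member had a mean signal of log2 7.13, against 7.99 for the 6295 other genes over the same threshold. The members' medians by array were 6.79 and 7.22 for the RNP-IPs labelled induced, 7.54 and 7.45 for those labelled uninduced, and 7.03 for total RNA. Replicates of a member differed by a median of 0.52 within the pair labelled induced and by 0.40 within the pair labelled uninduced, against 0.45 and 0.39 for the other genes. In 81 of 106 members (76.4%) replicate 2 labelled induced was the higher of its pair, against 61.6% of the other genes. Every array reached log2 6 for 66 members, while 24 had at least 1 group with a mean below it, so that they passed through the groups in which they were higher.

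The brightest member was Zfp622, whose protein is a factor of large ribosomal subunit maturation. It had 11.42 and 12.05 in the RNP-IPs labelled induced, against 12.83 and 12.69 labelled uninduced and 12.62 in total RNA, and the arrays labelled induced did not overlap the others. Its probe set carries a suffix for probes that can also detect other transcripts, so the gene is uncertain. Zfp266, a KRAB zinc finger gene, had 9.69 and 10.38 labelled induced, 11.28 and 11.24 labelled uninduced and 10.61 in total RNA. Zfp326, whose protein belongs to a complex linking transcript elongation to splicing, had 10.37 and 10.72 labelled induced, 10.58 and 10.40 labelled uninduced and 9.41 in total RNA. Here the total RNA array was the lowest and the RNP-IPs overlapped. Zfp330 had 9.83 and 10.11 labelled induced, 10.55 and 10.79 labelled uninduced and 10.03 in total RNA. Zfp871 had 9.96 and 9.58 labelled induced, 10.73 and 10.86 labelled uninduced and 9.72 in total RNA. In both of these genes the RNP-IPs labelled uninduced held the highest signals. Brightness depends on the probes as well as on the mRNA, so the order of these genes is not an order of their mRNA levels.

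At the threshold, Zfp521, an antagonist of adipocyte fate, was just inside with a mean of 6.01 and arrays of 5.59 and 6.27 labelled induced, 6.07 and 5.57 labelled uninduced and 6.54 in total RNA. Zfp788 had a mean of 6.02, with 5.27 and 5.75 labelled induced, 6.72 and 6.61 labelled uninduced and 5.77 in total RNA. Zfp9 had a mean of 6.03, with 5.86 and 5.01 labelled induced, 5.94 and 7.49 labelled uninduced and 5.86 in total RNA. None of the 3 was called in any comparison. Just outside were Zfp93 with a mean of 5.96 (5.63 and 5.85 labelled induced, 5.97 and 6.67 labelled uninduced, 5.71 in total RNA) and Zfp719 with 5.92 (5.72 and 6.18 labelled induced, 6.56 and 5.29 labelled uninduced and 5.85 in total RNA). Zfp81 was also just outside with 5.93, and its arrays lay far apart, with 4.14 and 4.02 labelled induced, 8.02 and 7.43 labelled uninduced and 6.05 in total RNA.

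**Figure D1:**
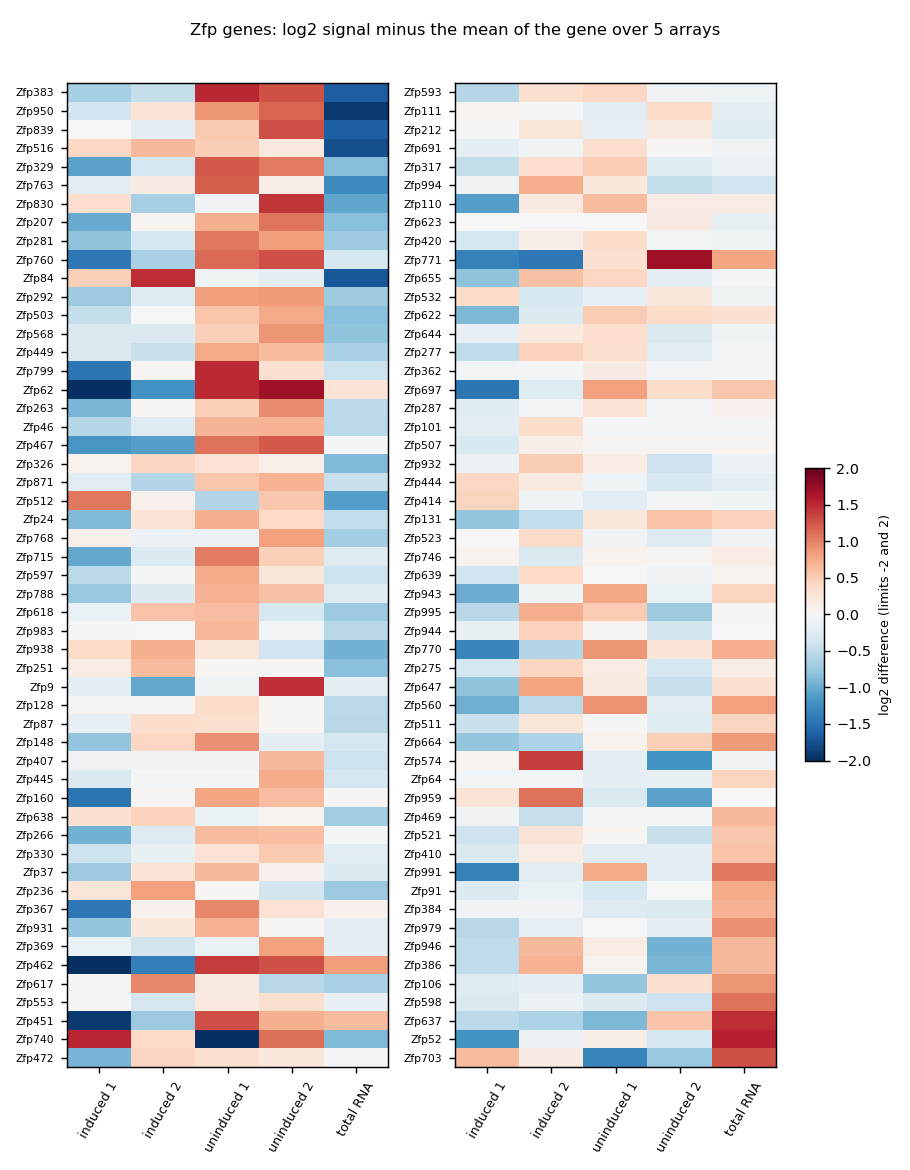
Heat map of the 106 Zfp genes (rows, in 2 panels) in the 5 arrays (columns), with colour for the log2 signal minus the mean of the gene over the 5 arrays, cut at -2 and 2. Rows run by the difference of labelled uninduced RNP-IPs minus total RNA, with Zfp383 first and Zfp703 last, and 72 of the 106 genes have a difference above 0.

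The first comparison set the RNP-IPs labelled induced against the other 3 arrays. The spread within those 3 also holds any difference between total RNA and the RNP-IPs labelled uninduced, which bears on the p-values. No member was called higher and 6 were called lower: Zfp462, Zfp62, Zfp771, Zfp451, Zfp467 and Zfp760. Of the 6, 4 had a mean under log2 6 in the RNP-IPs labelled induced. They passed the threshold through the arrays in which they were higher, so the choice of members is not independent of these calls. Among the 66 members with every array at least log2 6, 1 was called lower (1.52%). Calls took the loose thresholds of the study, a 3-fold difference or more with a limma adjusted p below 0.5. No gene of the array had an adjusted p under 0.05 in any of the 3 comparisons, the smallest being 0.0523, and at an unadjusted p under 0.05 there were 2 members higher (1.89%) and 12 lower (11.3%), against 9.76% and 16.0% of genes with a mean of at least log2 6. Among genes with a mean of at least log2 6, 2.72% were called higher and 5.78% lower, so the 5.66% of members called lower is near the background. The median log2 fold of the members was -0.22 (quartiles -0.81 and 0.09), against -0.15 for the other genes. The arrays labelled induced lay above all others in 9 members and below all others in 17, against 16.3% and 25.1% of genes over the threshold.

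Zfp462, whose protein acts on heterochromatin and cell identity in embryonic stem cells, had 5.92 and 6.73 in the RNP-IPs labelled induced, against 9.50 and 9.39 labelled uninduced and 8.93 in total RNA. The groups were far apart, and the log2 fold was -2.95 (SE 0.33, limma adjusted p = 0.116). It stayed called on leaving out any single RNP-IP and with the replicate number as a block. These numbers do not pair the samples, as shown at the end, so the block does not rank the 6 calls. With the median over its probe sets the log2 fold was -1.26 and the call was lost. Such a median counts dim probe sets as much as bright ones, here and for the genes below, so a smaller fold need not mean disagreement.

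Zfp62, a C2H2 gene first described in muscle, had 4.44 and 5.46 labelled induced, against 8.16 and 8.37 labelled uninduced and 6.94 in total RNA. Its log2 fold was -2.87 (SE 0.60, limma adjusted p = 0.245), and replicate 1 labelled induced was below log2 5, near background, so the size of the fold is not well measured. Its call was lost without replicate 2 labelled uninduced (log2 fold -2.60, adjusted p = 0.537) and with the median over its probe sets (-1.46).

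Zfp771 had 6.27 and 6.18 labelled induced, against 7.92 and 9.31 labelled uninduced and 8.40 in total RNA. Its log2 fold was -2.32 (SE 0.46, limma adjusted p = 0.228). The probe set carries a suffix for probes that can also hybridize to other transcripts, so the gene is uncertain. With the median over its probe sets the log2 fold was 0.01, and the call was lost there and with the replicate number as a block (-2.39, adjusted p = 0.583). It was kept with replicate 1 of one group paired to replicate 2 of the other, a pairing chosen after seeing the data (-2.39, adjusted p = 0.263).

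Zfp451, a SUMO ligase gene, had 5.28 and 6.47 labelled induced, against 8.48 and 7.91 labelled uninduced and 7.83 in total RNA. Its log2 fold was -2.20 (SE 0.45, limma adjusted p = 0.241), with no overlap of the groups. Without replicate 2 labelled uninduced the log2 fold was -2.28 and the call was lost (adjusted p = 0.529), as it was with the replicate number as a block (-2.32, 0.632) and with the median over its probe sets (-0.91). The call was kept with the crossed pairing of replicates used for Zfp771 (-2.32, adjusted p = 0.168).

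Zfp467, a regulator of the choice between bone and fat cells, had 5.29 and 5.35 labelled induced, against 7.53 and 7.67 labelled uninduced and 6.41 in total RNA. Its log2 fold was -1.88 (SE 0.45, limma adjusted p = 0.279), and its probe set is also of a kind shared by several transcripts. The call was lost without replicate 1 labelled induced (-1.86), replicate 1 labelled uninduced (-1.72) or replicate 2 labelled uninduced (-1.65), and with the median over its probe sets (-0.33).

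Zfp760 had 5.52 and 6.29 labelled induced, against 8.08 and 8.24 labelled uninduced and 6.59 in total RNA. Its log2 fold was -1.73 (SE 0.64, limma adjusted p = 0.487). Replicate 2 labelled induced lay close to total RNA, and leaving out any one RNP-IP ended the call, with log2 folds of -1.35 and -2.11 without replicates 1 and 2 labelled induced and -1.51 and -1.43 without replicates 1 and 2 labelled uninduced.

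**Figure D2:**
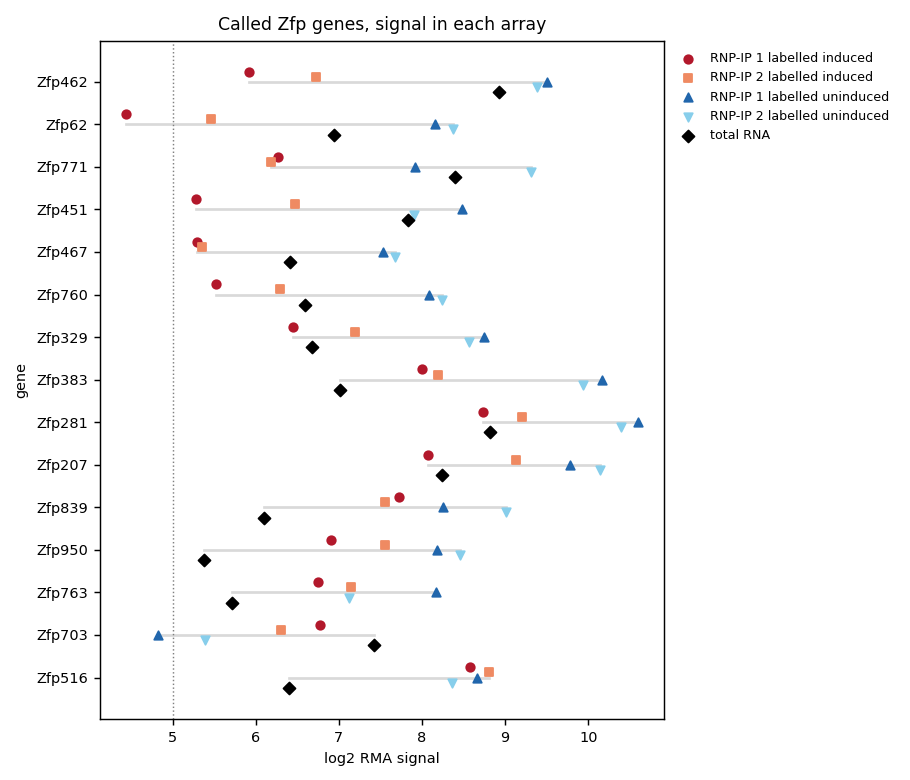
Log2 RMA signal of the 15 Zfp genes called in at least 1 comparison, with each array as a point and grey lines over the range of a gene. The dotted line marks log2 5, and in the upper 6 genes both arrays labelled induced lie below the other 3.

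Several members had smaller differences with groups that did not overlap. Zfp131, a BTB-domain zinc finger gene, had 8.62 and 8.90 labelled induced, against 9.62 and 9.96 labelled uninduced and 9.85 in total RNA, with a log2 fold of -1.05 (SE 0.15, limma adjusted p = 0.151). The fold was below 3, so it was not called. Zfp770 had 6.16 and 6.88 labelled induced, against 8.34 and 7.74 labelled uninduced and 8.19 in total RNA, with -1.57 (SE 0.31, adjusted p = 0.227). In the other direction, Zfp236 had 7.64 and 8.21 labelled induced, against 7.43 and 7.02 labelled uninduced and 6.67 in total RNA, with 0.89 (SE 0.31, adjusted p = 0.450). Zfp444 had 6.49 and 6.25 labelled induced, against 5.98 and 5.76 labelled uninduced and 5.89 in total RNA, with 0.50 (SE 0.11, adjusted p = 0.263). The highest log2 fold was that of Zfp84, at 1.64 (SE 0.67, adjusted p = 0.542), with 7.37 and 8.37 labelled induced, against 6.81 and 6.70 labelled uninduced and 5.20 in total RNA. Its probe set is one that several transcripts can share. Zfp740 was next at 1.61 (adjusted p = 0.689), and there the groups overlapped, with 9.53 and 8.39 labelled induced, against 5.86 and 9.10 labelled uninduced and 7.12 in total RNA.

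Some members hardly varied. Zfp362 had the smallest range, 0.23, with 7.01 and 7.04 labelled induced, 7.23 and 7.02 labelled uninduced and 7.04 in total RNA. Zfp623 had 7.55 and 7.55 labelled induced, 7.55 and 7.72 labelled uninduced and 7.41 in total RNA, a range of 0.31. The ranges of Zfp507, Zfp746 and Zfp212 were 0.42, 0.44 and 0.49. Exactly equal values occurred in 23 members (21.7%), against 14.2% of the other genes over the threshold. Zfp507 had 6.26 and 6.68 labelled induced, 6.62 and 6.62 labelled uninduced and 6.62 in total RNA. Zfp746 had 6.29 and 5.93 labelled induced, 6.29 and 6.24 labelled uninduced and 6.37 in total RNA. Zfp212 had 6.96 and 7.23 labelled induced, 6.82 and 7.16 labelled uninduced and 6.74 in total RNA, with overlapping groups.

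The second comparison left total RNA out and set the induced-label RNP-IPs against the uninduced-label RNP-IPs. No member was called higher and 8 were called lower, against 2.94% and 6.36% of genes over the threshold, and at an unadjusted p under 0.05 there were 4 higher (3.77%) and 24 lower (22.6%), against 11.0% and 16.7%. The 8 are 7.55% of the members, near the background. They were the same 6 genes, with Zfp383 and Zfp329 added. Among the 66 members with every array at least log2 6, 3 were called lower (4.55%), so here too the choice of members is not independent of the calls. The median log2 fold of all members was -0.31, against -0.11 for the other genes, and 67.0% of members were below 0, against 55.6%. This comparison shares the arrays labelled induced and labelled uninduced with the first, so the 2 sets of calls are not separate evidence.

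Zfp383, a KRAB zinc finger gene, had 8.0 and 8.19 labelled induced, against 10.17 and 9.94 labelled uninduced, with a log2 fold of -1.96 (SE 0.13, limma adjusted p = 0.127). Total RNA had 7.01, below all RNP-IPs. Zfp329 had 6.45 and 7.19 labelled induced, against 8.75 and 8.56 labelled uninduced, with -1.83 (SE 0.32, adjusted p = 0.252), and total RNA had 6.68. The call of Zfp329 was lost without replicate 1 labelled induced (-1.46). Without total RNA as a reference, Zfp62 had a log2 fold of -3.31 (SE 0.44, adjusted p = 0.196), Zfp462 of -3.12 (SE 0.34, 0.172), Zfp467 of -2.28 (SE 0.07, 0.118) and Zfp760 of -2.26 (SE 0.33, 0.215). Zfp771 (-2.39, 0.345) was no longer called without replicate 1 (-2.43) or replicate 2 (-2.35) labelled induced, and Zfp451 (-2.32, 0.339) without replicate 1 labelled uninduced (-2.03). With the median over probe sets the calls of Zfp462 (-1.43), Zfp771 (-0.06), Zfp451 (-1.22), Zfp467 (-0.49), Zfp383 (-0.97) and Zfp329 (-1.32) were lost. Without replicate 2 labelled induced the number of members called lower was 15, and 10 in the first comparison.

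The third comparison set the RNP-IPs labelled uninduced against total RNA, the comparison in which the share of members above 0 lay farthest from that of the other genes. In 72 of 106 members (67.9%) the mean of the RNP-IPs was above total RNA, against 44.7% of genes over the threshold. The median log2 fold was 0.29 (quartiles -0.11 and 0.90), against -0.09 for the other genes. Both arrays labelled uninduced were above total RNA in 58 members (54.7%), against 32.7% of genes over the threshold, and both were below it in 22 (20.8%), against 41.2%. All 4 RNP-IPs were above total RNA in 26 members (24.5%, background 18.8%) and below it in 17 (background 30.0%). In the RNP-IPs labelled induced the median difference of the members from total RNA was 0.01, against -0.20 for the other genes, and 53 members (50.0%) were above it, against 41.3%. The members thus stood above the other genes in both kinds of RNP-IP. The total RNA group is 1 array, which every one of these differences shares.

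**Figure D3:**
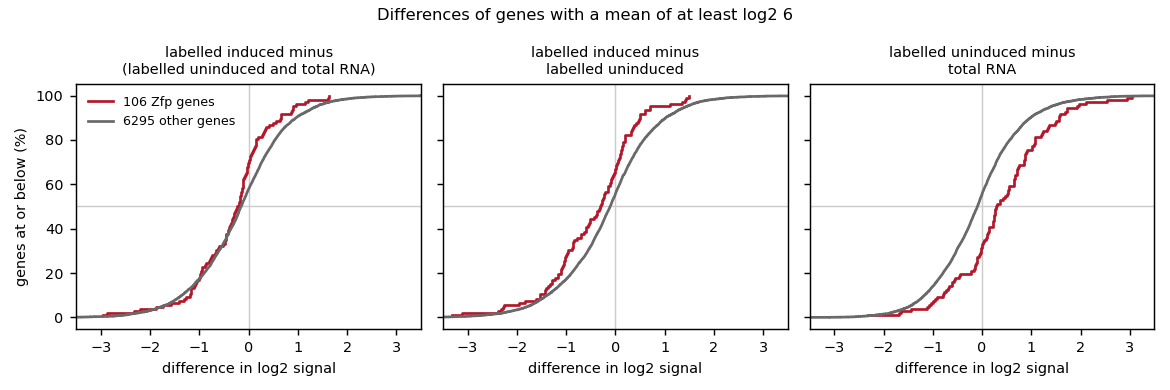
Cumulative share of genes (percent) by difference in log2 signal, for the 106 Zfp genes and the 6295 other genes with a mean of at least log2 6, in 3 comparisons. In the right panel, labelled uninduced RNP-IPs minus total RNA, the Zfp curve lies to the right, with a median of 0.29 against -0.09.

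Without replicate 1 labelled uninduced 65 of the 106 members were above total RNA, and without replicate 2 labelled uninduced 76 were. The arrays labelled induced do not enter this difference. The total RNA array, on which every difference rests, could not be left out.

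A total of 8 members were called higher and 1 lower in the third comparison, against 3.03% and 2.56% of genes over the threshold, and at an unadjusted p under 0.05 there were 20 higher (18.9%) and 7 lower (6.60%), against 9.92% and 10.9%. Total RNA was below log2 6 for Zfp950 and Zfp763, as were both arrays labelled uninduced for Zfp703, so the choice of members is not independent of these calls. Among the 66 members with every array at least log2 6, 6 were called higher (9.09%) and 0 lower. Zfp383 had the highest log2 fold, 3.05 (SE 0.16, limma adjusted p = 0.158), from the signals given above. Zfp950 had 8.18 and 8.46 in the RNP-IPs labelled uninduced, against 5.38 in total RNA, a log2 fold of 2.94 (SE 0.36, adjusted p = 0.233). The RNP-IPs labelled induced lay between, at 6.91 and 7.55. Zfp839 had 8.25 and 9.01 labelled uninduced, against 6.10 in total RNA, a log2 fold of 2.53 (SE 0.40, adjusted p = 0.275), and again the arrays labelled induced (7.72 and 7.55) lay between. With the median over all probe sets of a gene, which counts dim probe sets too, Zfp839 alone of the 8 stayed called. Its log2 fold and adjusted p were there the same as in the main fit, so that setting did not test its call. The log2 folds of the others were then 1.53 for Zfp383, 0.28 for Zfp950, 1.07 for Zfp516, 1.40 for Zfp281, 0.08 for Zfp207, 1.20 for Zfp329 and 1.00 for Zfp763.

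Zfp516, a gene of brown fat formation, had 8.66 and 8.36 labelled uninduced, against 6.40 in total RNA, with a log2 fold of 2.11 (SE 0.20, limma adjusted p = 0.198). Its arrays labelled induced were as high, at 8.58 and 8.81, so all 4 RNP-IPs stood above total RNA, on a probe set that may detect other transcripts. Zfp281, a transcription factor of pluripotent cells, had 10.60 and 10.39 labelled uninduced, against 8.82 in total RNA, with 1.68 (SE 0.26, adjusted p = 0.273). The arrays labelled induced, at 8.74 and 9.20, were near total RNA, and the call was lost without replicate 1 labelled uninduced (1.58). Zfp207, whose protein helps kinetochores attach to the spindle, had 9.78 and 10.14 labelled uninduced, against 8.24 in total RNA, with 1.72 (SE 0.57, adjusted p = 0.489). Its call was lost without either of these arrays (1.90 without replicate 1, 1.54 without replicate 2). Zfp329 was at 1.97 (adjusted p = 0.334). Zfp763 was at 1.94 (adjusted p = 0.448), with 8.17 and 7.12 labelled uninduced, against 5.71 in total RNA, and its call was lost without either array labelled induced (1.94 in both fits, with adjusted p = 0.622) or without replicate 1 labelled uninduced (1.41).

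Zfp703, a transcriptional corepressor gene of breast epithelium, was the only member called lower, at -2.31 (SE 0.37, limma adjusted p = 0.278). It had 4.83 and 5.39 in the RNP-IPs labelled uninduced, against 7.42 in total RNA, and 6.77 and 6.31 in the RNP-IPs labelled induced. Replicate 1 labelled uninduced was near background, so the size of the fold is not well measured. With the median over its probe sets the log2 fold was 0.10 and the call was lost. Zfp52 and Zfp637 were next in order, at -1.68 (adjusted p = 0.514) and -1.65 (adjusted p = 0.623), and were not called.

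By role, in groups chosen after the values were seen, members acting on RNA and ribosomes held 7 genes, of which none was called in any comparison. Among genes over the threshold, 2.72% were called higher and 5.78% lower in the first comparison. The shares were 2.94% and 6.36% in the second and 3.03% and 2.56% in the third. At these shares, counts of calls in groups this small describe single genes only. Zfp598, a ubiquitin ligase gene for collided ribosomes, had 6.02 and 6.20 labelled induced, 6.03 and 5.90 labelled uninduced and 7.40 in total RNA. All 4 RNP-IPs lay below total RNA, and the difference of the RNP-IPs labelled uninduced from total RNA was -1.44 (limma adjusted p = 0.184). Zfp638, an RNA-binding protein gene, had 7.74 and 7.89 labelled induced, 7.30 and 7.50 labelled uninduced and 6.74 in total RNA, so that all 4 RNP-IPs lay above it. Zfp106, also an RNA-binding protein gene, had 8.24 and 8.28 labelled induced, 7.71 and 8.80 labelled uninduced and 9.37 in total RNA, the highest. The log2 folds of the 7 genes against total RNA ran over -1.44 to 1.73.

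Members of ubiquitin, SUMO and receptor signalling held 4 genes, with Zfp451 called lower in the first comparison, against 5.78% of genes over the threshold. Zfp91, a ubiquitin ligase gene, had 9.03 and 9.16 labelled induced, 8.95 and 9.30 labelled uninduced and 10.04 in total RNA. Zfp110 and Zfp369, which code for proteins that bind the p75 neurotrophin receptor, had log2 folds of -0.77 (adjusted p = 0.683) and -0.42 (adjusted p = 0.728) in the first comparison. The 10 genes of cell fate and chromatin held 2 called lower in the first comparison (Zfp462, Zfp467) and 2 called higher (Zfp281, Zfp516) and 1 lower (Zfp703) in the third. Among genes over the threshold, 5.78% were called lower in the first comparison, and 3.03% higher and 2.56% lower in the third. Zfp384 had 8.37 and 8.37 labelled induced, 8.18 and 8.15 labelled uninduced and 9.13 in total RNA, so that all RNP-IPs lay below total RNA. Zfp503, a corepressor gene of the developing striatum, had 8.48 and 8.97 labelled induced, 9.51 and 9.72 labelled uninduced and 8.12 in total RNA, a difference of 1.5 in the third comparison (limma adjusted p = 0.316).

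Zfp445, which keeps genomic imprints, had 9.57 and 9.82 labelled induced, 9.82 and 10.61 labelled uninduced and 9.51 in total RNA. Zfp568, which represses a promoter of Igf2, had 6.72 and 6.72 labelled induced, 7.48 and 7.89 labelled uninduced and 6.20 in total RNA. In both the RNP-IPs labelled uninduced averaged above total RNA, by 0.70 and 1.49 (limma adjusted p = 0.744 and 0.259), without a call. Of 18 listed partners of KRAB zinc finger proteins, 14 had a mean of at least log2 6. None was called in the first comparison, Atf7ip (-1.72) and Smarcad1 (-1.81) were called lower in the second and Uhrf1 (-2.89) in the third. Among genes over the threshold, 5.78% were called lower in the first comparison, 6.36% in the second and 2.56% in the third. Trim28, the corepressor itself, had 8.85 and 9.25 labelled induced, 9.31 and 9.57 labelled uninduced and 10.86 in total RNA. All 4 RNP-IPs lay below total RNA, and it was not called (-1.42 in the third comparison, adjusted p = 0.300).

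Other zinc-binding families were set beside the members at the same threshold. The 24 Zbtb, Zkscan and Zscan genes, which also code for C2H2 fingers, had a median of 0.59 in the third comparison, with 83.3% above total RNA. Of these Zbtb18 (2.11), Zbtb34 (1.84) and Zscan21 (2.31) were called higher, against 3.03% of genes over the threshold. The 32 Zfand, Zcchc, Zdhhc and Zc3h genes, whose proteins bind zinc in other folds, had a median of -0.07, with 40.6% above total RNA. Zdhhc16 (-1.63) was called lower, against 2.56% of genes over the threshold. In the second comparison the median of the C2H2 group was -1.01, and Zbtb18 (-2.02) and Zbtb6 (-1.76) were called lower, while none of the 32 was called. In the first comparison Zbtb44 (-1.72) and Zcchc8 (-1.64) were called lower and Zfand1 (1.81) and Zfand4 (1.94) higher. Among genes over the threshold, 5.78% were called lower and 2.72% higher there.

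**Figure D4:**
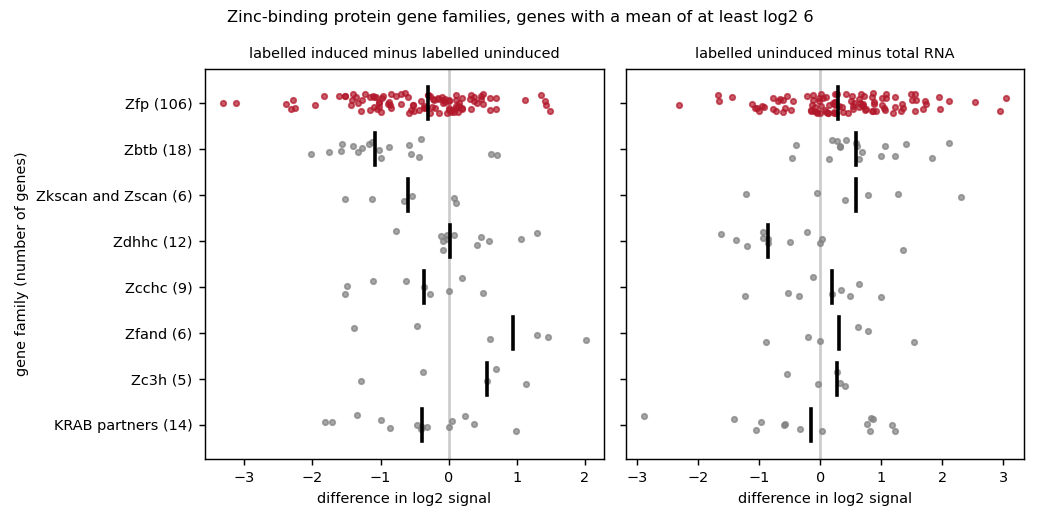
Difference in log2 signal of single genes (points) and family medians (black bars) for Zfp genes, 7 other families of zinc-binding proteins by symbol (Zkscan and Zscan in 1 row) and partners of KRAB zinc finger proteins, with the number of genes in brackets. In the right panel the Zfp median is 0.29, and the 24 Zbtb, Zkscan and Zscan genes together have a median of 0.59.

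Different probe sets of one gene did not always move together. Of the 106 members 36 had 1 probe set and 70 had several, with 135 further probe sets, of which 92 were below log2 5 in every array. Of the 20 further probe sets with a mean of at least log2 6, 14 had the sign of the chosen probe set in the first comparison and 6 the opposite, with a median difference of 0.73 in log2 fold. For Zfp266 a further probe set had 6.41 and 6.61 labelled induced, against 4.11 and 3.99 labelled uninduced and 3.43 in total RNA. It was called higher at 2.67 (SE 0.25, limma adjusted p = 0.0985), although the chosen, brighter probe set of Zfp266 had -1.01. Since the arrays that are not labelled induced were near background, the size of 2.67 is not well measured.

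For Zfp386, a further probe set had 5.92 and 7.23 labelled induced, against 3.94 and 4.19 labelled uninduced and 4.62 in total RNA, and was called higher at 2.32 (SE 0.48, limma adjusted p = 0.242). Its chosen probe set had 6.18 and 7.37 labelled induced, against 6.76 and 5.77 labelled uninduced and 7.33 in total RNA, with a log2 fold of 0.15, and the groups overlapped. Zfp266, Zfp386 and Zfp644 stand in the study's own list of enriched mRNAs, which was drawn from these arrays and is no independent evidence. Zfp644, whose protein brings a histone methyltransferase to chromatin, had 7.73 and 8.09 labelled induced, 8.22 and 7.60 labelled uninduced and 7.81 in total RNA, with 0.03. Its chosen probe set is one that several transcripts can share. The study's list names no probe sets, so it may rest on others than those chosen here. For Zfp281 a further probe set was called lower in the first comparison at -1.68 (SE 0.48, adjusted p = 0.346), with 4.71 and 5.40 labelled induced, against 7.06 and 7.16 labelled uninduced and 6.00 in total RNA.

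The 4 probe sets of Zfp451 above the threshold all had negative log2 folds, -2.20, -0.83, -0.91 and -1.39, with only the first called. In Zfp207, replicate 1 labelled uninduced was the highest but one on the chosen probe set, with 9.78, and the lowest on the other 2. These had 8.63 and 8.53 labelled induced, 4.94 and 8.24 labelled uninduced and 8.45 in total RNA, and 8.25 and 6.49 labelled induced, 4.49 and 8.63 labelled uninduced and 7.34 in total RNA. The probe sets of Zfp207 thus disagreed within 1 array.

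**Figure D5:**
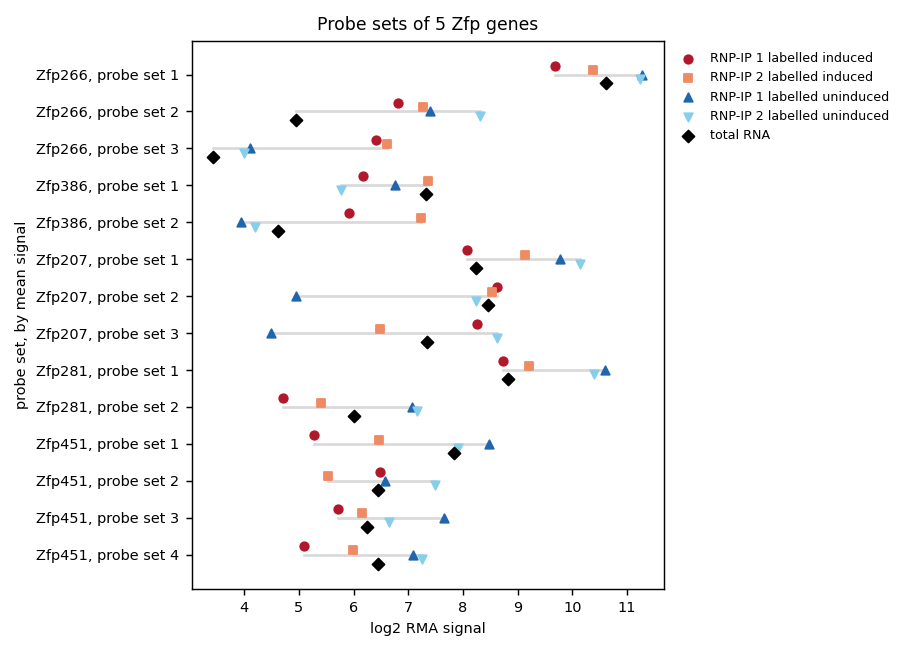
Log2 RMA signal in each array for the probe sets of Zfp266, Zfp386, Zfp207, Zfp281 and Zfp451 that reached log2 5 in at least 1 array, numbered by mean signal within a gene. The third probe set of Zfp266 is higher in both arrays labelled induced, while the first is lower in them.

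Zfp genes lie in clusters, and 32 of the 106 members stood in 11 runs of neighbours with at most 2 other protein-coding genes between them. In 8 of the 11 runs every member averaged higher in the RNP-IPs labelled uninduced than in total RNA. Of all 106 members 67.9% did so, and no share was computed for runs of other genes, so the count is a description only. The longest run, with 8 genes, was Zfp52, Zfp983, Zfp760, Zfp995, Zfp943, Zfp994, Zfp944 and Zfp946. Its log2 folds ran over -1.73 to 0.56 in the first comparison and -1.68 to 1.57 in the third, and Zfp760 was its only call. In the run of Zfp420, Zfp383 and Zfp568, all 3 were above total RNA in the third comparison, by 0.23, 3.05 and 1.49, and Zfp383 alone was called. In the run of Zfp329, Zfp110 and Zfp128 the differences were 1.97, 0.24 and 0.75.

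Of the 198 Zfp genes under the threshold, 2 were called higher (1.01%) and 3 lower (1.52%) in the first comparison, against 1.32% and 2.36% of all genes. Of the 240 and 430 genes behind the last 2 shares, 174 and 370 had a mean of at least log2 6. Those shares are therefore too high a background for genes under the threshold, and none was computed for these alone. Zfp825 had 6.16 and 7.62 labelled induced, against 5.07 and 4.93 labelled uninduced and 5.28 in total RNA, a log2 fold of 1.80 (limma adjusted p = 0.330). Zfp248 had 6.06 and 6.51 labelled induced, against 4.83 and 4.59 labelled uninduced and 3.70 in total RNA, a log2 fold of 1.91 (adjusted p = 0.253). Both genes also stand in the study's own list, drawn from these arrays. Zfp800 had 2.86 and 3.83 labelled induced, against 8.21 and 7.15 labelled uninduced and 6.58 in total RNA, a log2 fold of -3.97 (adjusted p = 0.166). Zfp81 and Zfp229 were the others called lower, at -3.08 and -2.10.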

How the data were processed

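RNA of NIH-3T3 cells was measured on 5 Affymetrix mouse arrays. The authors amplified 50 ng of RNA per array in 2 cycles and deposited log2 values after RMA for 45101 probe sets (version not given in the sources used here). Gene names came from GEO's annotation of the array, in which 34958 probe sets had 1 gene, 932 several and 9211 none, and RefSeq (GRCm38.p6) served for names and neighbours alone. All 5 columns were fitted with limma 3.58.1 in R 4.3.3 (lmFit, eBayes), and p-values were adjusted over all probe sets (Benjamini-Hochberg). The first comparison used 2 groups, and the others used 3 groups, in which total RNA, with 1 array, takes the spread of the RNP-IPs. The p-values measure the spread between these arrays, whose number limits the precision. In the first comparison this spread also holds the difference between total RNA and the RNP-IPs labelled uninduced, which were pooled. For Zfp383 the SE was 1.15 there and 0.13 in the second comparison. In simulated data for the first comparison, on 45101 probe sets, calls in the right direction reached 63 of 100 probe sets changed 4-fold and 88 of 100 changed 16-fold, with 10 unchanged ones called. The simulated noise was normal and independent between arrays. It held no difference between total RNA and the RNP-IPs labelled uninduced, and no opposite deviations of same-numbered replicates. Both occur in the real arrays, so these rates need not hold for them.

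The members and lists were chosen with earlier results of these data known. Genes were named by a rule: called members, the 5 brightest, those nearest the threshold, those with the smallest range, members with disagreeing probe sets, those in the study's list, and Hnrnpd; role groups, smaller differences and further examples were added after the values were seen. Alternatives covered normalization, filtering, variance trend, probe set choice, thresholds, pairing and single arrays. Protein and 3'UTR features were not analysed here.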

Additional observations from a re-analysis of the deposited data

How the results depend on the processing

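Of 94 recomputed counts 65 stayed within 1.5 times and 29 did not, and of 325 recomputed log2 folds of named genes 277 kept direction and side of the threshold, 41 lost the call and 7 changed sign; the cause was not tested. Members called higher in the first comparison (0) became 1 with median centring, 1 with cyclic loess, 2 in a fit of probe sets with a mean of at least log2 6 and 2 for members from log2 5, and ran over 0 to 1 on leaving out each RNP-IP. Those called lower (6) became 1 with the median over all probe sets of a gene and 3 for members from log2 7, and ran over 4 to 10. In the second comparison those called higher (0) became 1 for members from log2 5 and ran over 1 to 2, and those called lower (8) became 3 with the median over probe sets, 13 from log2 5 and 5 from log2 7, and ran over 6 to 15. In the third, those called higher (8) became 1 with the median over probe sets and ran over 7 to 8, and those called lower (1) became 2 with median centring, cyclic loess or a variance trend, 3 in the filtered fit and 0 with the median over probe sets or from log2 7, and ran over 1 to 3. Members above total RNA (72 of 106) were 45 of 58 from log2 7. They were 65 without replicate 1 labelled uninduced and 76 without replicate 2 labelled uninduced. With the median over probe sets the log2 fold was 0.01 for Zfp771 and 0.08 for Zfp266 in the first comparison and 0.10 for Zfp703 in the third. Leaving out each RNP-IP in turn, Zfp644 ran over -0.15 (without replicate 2 labelled induced) to 0.21 and was at -0.11 without replicate 2 labelled uninduced, and Zfp386 ran over -0.44 (without replicate 2 labelled induced) to 0.75 and was at -0.27 without replicate 2 labelled uninduced.

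Same-numbered RNP-IPs deviated in opposite directions (Pearson r = -0.50 across 45101 probe sets, which are not independent), so the numbers do not pair the samples. With the replicate number as a block (replicate block) 5 members were called lower in the first comparison and 5 in the second, and none higher. With the crossed pairing, chosen after seeing the data, 9 were called lower in each. The number of arrays and signals near background limit the sizes of the folds.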
